A study of Mus musculus with 9 samples.

Results

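Megakaryocytes are the large blood cells that shed platelets. They share a progenitor with red blood cells, replicate their DNA without dividing and fill their cytoplasm with alpha granules, which carry chemokines and clotting proteins, and dense granules, which carry ADP and serotonin. In the early embryo, megakaryocyte lineage cells arise with the first wave of blood and reach every perfused tissue, the limb bud included. Platelet function rests on receptors that bind damaged vessel wall, such as the von Willebrand factor receptor made of *Gp1ba*, *Gp1bb*, *Gp5* and *Gp9* products and the fibrinogen receptor made of the integrins of *Itga2b* and *Itgb3*. It also rests on G protein-coupled receptors for thrombin and ADP, and on a transcription factor set with *Gata1*, *Fli1*, *Nfe2*, *Gfi1b* and *Runx1*.

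Megakaryocyte lineage cells were sought in droplet libraries of dissociated forelimb bud pairs. The mouse embryos were at E10.75, with 37 to 39 somites, and bred into a Swiss Albino background. There were 3 libraries of wild-type (Wt) embryos, 3 of embryos homozygous for the *EC1CRM8* allele (*E1C8*Δ/Δ) and 3 of embryos homozygous for the *EC1CRM5* allele (*E1C5*Δ/Δ). Both alleles delete enhancers of *Grem1*, an antagonist of bone morphogenetic proteins, and share the deletion of the enhancer cluster *EC1*. The *E1C8* allele was made by genome editing of *EC1*-deficient zygotes. Per the labels each library was 1 pair of forelimb buds. The values are unique molecular identifiers (UMIs, counted 3′ transcript ends) per gene and barcode.

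A barcode was taken as a member when it had over 1000 genes, under 200000 UMIs, a mitochondrial share below 10%, at least 1 UMI of 4 or more of the 8 genes *Pf4*, *Ppbp*, *Itgb3*, *Treml1*, *Gp5*, *Gp9*, *Rab27b* and *Rgs18* (the rule genes), and UMIs of at most 1 of the complement genes *C1qa*, *C1qb* and *C1qc*, which mark macrophages. Of 83167 barcodes that passed the first 3 conditions, out of 133086 deposited, 179 were members. In the order of replicates 1 to 3, the Wt libraries held 44, 15 and 3 of them, those of *E1C8*Δ/Δ 0, 42 and 27, and those of *E1C5*Δ/Δ 16, 5 and 27. All 179 had 0 UMIs of the 3 complement genes, and 0 passing barcodes with 4 or more rule genes had UMIs of 2 or 3 of them.

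Members were deep: their median was 46155 UMIs and 6492 genes, against 16293 UMIs and 4221 genes in all other barcodes. A further 3 kinds of cell served for comparison, each gated by at least 4 of 8 marker genes and limited to at most 1 rule gene: 173 macrophage, 3451 erythroid and 1166 endothelial cells. Any 2 of the 9 libraries shared between 0 and 74 barcodes, at most 0.652% of the smaller library. Of the members' barcodes, 5 also occurred in another library, none of them with a UMI of a rule gene there. *Grem1* lay at 25.8 to 31.5 CPM (a gene's UMIs relative to all UMIs of the cells summed, on the usual CPM scale) in Wt, 10.3 to 11.7 in *E1C8*Δ/Δ and 14.1 to 22.7 in *E1C5*Δ/Δ libraries.

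Levels below are CPM of the summed members of a library, for the 6 libraries with at least 10 members (Wt without replicate 3, *E1C8*Δ/Δ without replicate 1, *E1C5*Δ/Δ without replicate 2). The rule genes chose the cells, so their levels describe the choice. They were left out of the tests against other cell types but stayed in the fit between genotypes. The limit of 1 rule gene in the comparison cells, and of under 4 in all other barcodes, likewise holds down the shares of those cells with UMIs of each rule gene. *Pf4* (ENSMUSG00000029373, GRCm38 chr5:90772435-90773383), which encodes the alpha granule chemokine platelet factor 4, had 9250 and 9014 CPM in the Wt, 9778 and 8076 in the *E1C8*Δ/Δ and 17506 and 4610 in the *E1C5*Δ/Δ libraries. The pair of *E1C5*Δ/Δ libraries thus held both the highest and the lowest level. *Pf4* UMIs were found in 95.5% of members (median 46155 UMIs), 37.6% of macrophage cells (36623), 10.1% of endothelial cells (21976), 2.46% of erythroid cells (31065) and 3.49% of all other barcodes (16293). In macrophage cells *Pf4* had 84.1 to 217 CPM, so *Pf4* UMIs were not limited to members.

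*Ppbp* (chr5:90768518-90770063), the neighbour of *Pf4* and the gene of a further platelet chemokine, had 139.6, 479 and 869 CPM as lowest, median and highest value, and its UMIs were in 64.8% of members, 0 of 173 macrophage cells and 0.341% of all other barcodes. *Itgb3* (chr11:104608000-104670476), the beta chain of the fibrinogen receptor, had 178 to 313 CPM and UMIs in 82.7% of members and 5.24% of erythroid cells. *Treml1* (chr17:48359916-48367176), a receptor of alpha granule membranes, had 117 to 314 CPM and UMIs in 88.8% of members and at most 1.73% of any other kind of cell. *Gp5* (chr16:30307685-30310779) had 106 to 277 CPM and *Gp9* (chr6:87778072-87779768) 136 to 368 CPM. *Gp9* UMIs were also in 6.43% of erythroid cells. *Rab27b*, a small GTPase of granule secretion, had 169 to 465 CPM. *Rgs18* (chr1:144752683-144775435), a brake on G protein signalling, had 99.7 to 307 CPM in members and 3.65 to 38.8 CPM in macrophage cells, where 30.1% of cells had a UMI.

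Promoters are shown for *Pf4*, *Gp5* and *Gp9*, rule genes whose joint presence in a cell the membership rule itself favours. That of *Itga2b*, the partner chain of *Itgb3* and a marker outside the rule, is shown as well. GATA and ETS factors are the families of *Gata1* and *Fli1*, whose levels are given further on. Each sequence runs from 250 bases before to 50 bases after the RefSeq start on the gene's own strand (GRCm38.p6), and capitals mark the letters AGATAA and also TGATAA, called GATA here, and the letters AGGAAG and also CGGAAG, called ETS, on either strand; no match overlapped another.
*Pf4* (chr5:90772185-90772484, plus strand): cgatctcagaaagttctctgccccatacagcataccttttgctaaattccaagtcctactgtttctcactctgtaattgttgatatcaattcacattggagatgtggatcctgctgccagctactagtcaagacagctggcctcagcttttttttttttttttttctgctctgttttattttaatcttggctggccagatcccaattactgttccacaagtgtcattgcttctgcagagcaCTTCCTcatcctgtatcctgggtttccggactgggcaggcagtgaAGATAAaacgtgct
*Gp5* (chr16:30310732-30311031, minus strand): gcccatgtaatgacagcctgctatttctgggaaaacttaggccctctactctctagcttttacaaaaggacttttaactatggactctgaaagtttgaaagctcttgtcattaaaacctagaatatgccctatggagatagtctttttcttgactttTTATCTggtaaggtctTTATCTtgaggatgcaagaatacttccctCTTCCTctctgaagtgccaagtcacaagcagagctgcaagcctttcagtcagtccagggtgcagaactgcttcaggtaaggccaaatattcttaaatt
*Gp9* (chr6:87777820-87778119, plus strand): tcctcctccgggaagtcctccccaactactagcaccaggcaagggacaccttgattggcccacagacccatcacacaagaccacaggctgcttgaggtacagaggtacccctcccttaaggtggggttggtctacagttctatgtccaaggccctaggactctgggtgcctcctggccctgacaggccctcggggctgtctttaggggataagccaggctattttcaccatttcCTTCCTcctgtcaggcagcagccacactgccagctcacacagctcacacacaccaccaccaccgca
*Itga2b* (chr11:102469834-102470133, minus strand): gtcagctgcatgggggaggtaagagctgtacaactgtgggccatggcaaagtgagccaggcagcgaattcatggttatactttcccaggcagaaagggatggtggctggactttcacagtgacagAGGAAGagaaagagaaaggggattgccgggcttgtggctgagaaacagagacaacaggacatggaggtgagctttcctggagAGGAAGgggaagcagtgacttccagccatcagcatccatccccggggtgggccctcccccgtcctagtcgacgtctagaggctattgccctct
*Pf4* held 1 GATA match, at bases 36 to 41 after the start, and 1 ETS match on the opposite strand at bases -9 to -4. *Gp5* held 2 GATA matches on the opposite strand, from bases -93 and -77, and 1 ETS match on that strand from base -48. *Gp9* held 1 ETS match on the opposite strand from base -16, and *Itga2b* 2, from bases -125 and -43. Among all 32851 promoters of the same length, 18.6% held the GATA and 46.5% the ETS letters, so single matches are common. Of the rule genes, 5 of 8 had an entry, and *Itgb3*, *Rab27b* and *Rgs18* had none. Among the 433 promoters of genes that were higher in members than in each of the 3 comparison cell types, 14.3% held the GATA letters, against 9.97% of the 11164 promoters of all genes tested, and 49.0% against 54.8% held the ETS letters.

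Members differed widely among themselves. All 8 rule genes were found in 57 of them, 7 in 43, 6 in 16, 5 in 23 and 4 in 40. The 100 members with 7 or 8 rule genes had a median of 19133 CPM of the 8 genes together, and the 79 members with 4 to 6 had 1151 CPM, at like depths of 46254 and 44801 UMIs. For *Pf4* alone the medians were 15458 and 932 CPM. These classes were set after the members' levels had been seen, and they follow from the rule genes. Of 10 lineage markers that the rule did not use (*Itga2b*, *Gp1ba*, *Gp1bb*, *Gp6*, *Clec1b*, *Tubb1*, *Nfe2*, *Gfi1b*, *Gata1* and *Vwf*), members with 7 or 8 rule genes had UMIs of 9 in the median and members with 4 to 6 had UMIs of 3. All 10 were found in 48 of the former and in 1 of the latter, and 6 of the latter had none. With each barcode thinned to 10000 UMIs, the medians were 6 markers (95 members, 5 shallower ones left out) and 1 marker (63 members, 16 left out). The label of megakaryocyte lineage is thus carried by its further markers in the median of the former class. Its single members ranged from 0 to 10 markers after thinning, so the markers do not carry the label for all of them. In the latter class, with a median of 1 marker and a range of 0 to 6 after thinning, they do not carry it for all members either.

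The 10 limb mesenchyme genes (*Prrx1*, *Prrx2*, *Pdgfra*, *Tbx5*, *Twist1*, *Col1a1*, *Col3a1*, *Meis2*, *Sall4* and *Msx1*) moved with this. Their median level was 1654 CPM in members with 4 to 6 rule genes and 284 CPM in those with 7 or 8, and 179.4 CPM in members with all 8. At least 500 CPM of them was found in 101 members, 57 of the former class and 44 of the latter. In all other barcodes of the 6 libraries these genes summed to 1870 to 2387 CPM. The 57 members had a median of 1928 CPM of them. Of the 10 further markers the same 57 had UMIs of 2 in the median, with 127 CPM of these markers together. For these 57 the further markers do not carry the label. Doublet calls, made by comparison with simulated pairs of barcodes, fell on 17 of the 79 members with 4 to 6 rule genes and on 6 of the 100 with 7 or 8. Over all members the share was 12.8%, against 4.62% of macrophage, 17.04% of erythroid, 15.1% of endothelial cells and 9.44% of all other barcodes. The part of a second cell or of free RNA in these levels was not tested.

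**Figure D1:**
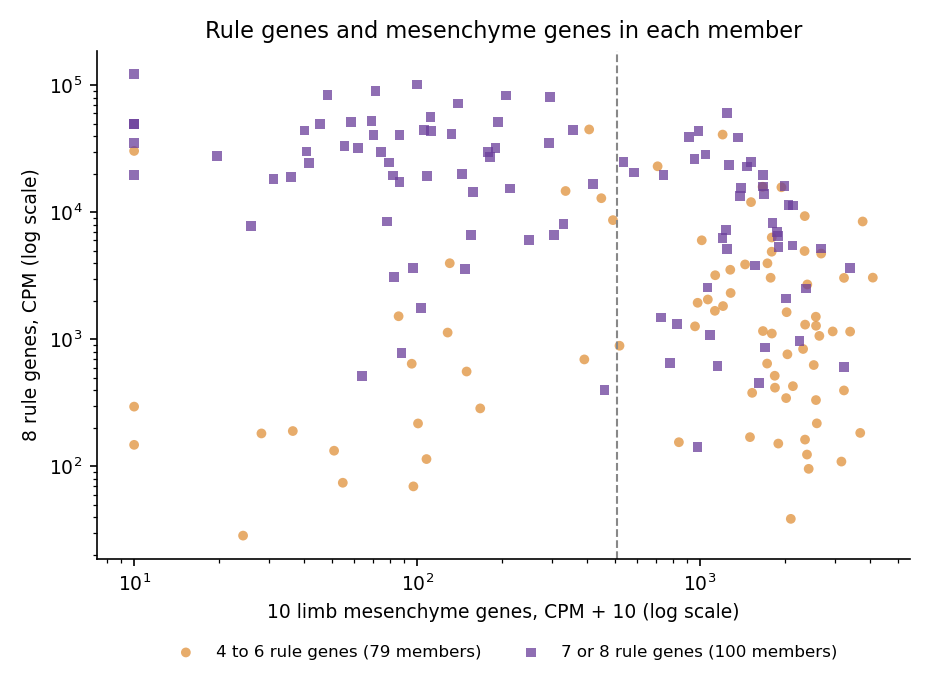
Summed CPM of the 8 rule genes (vertical, log scale) against summed CPM of 10 limb mesenchyme genes plus 10 (horizontal, log scale), 1 point per member for all 179 members, with a dashed line at 500 CPM. Members with 7 or 8 rule genes (squares, 100) lie higher than members with 4 to 6 (circles, 79), and 57 circles and 44 squares lie at or right of the line.

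The 40 members with exactly 4 rule genes had a median of 30560 UMIs and 1806 CPM of mesenchyme genes, and the 63 passing barcodes with exactly 3 had 47755 UMIs and 1186 CPM. Across all 179 members, the level of the rule genes correlated with that of the 10 further markers with a Spearman's rho of 0.84, with the mesenchyme genes of -0.38, with DNA replication genes of -0.47 and with depth of -0.37. Cells share libraries and depth, and these values are descriptions.

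In each of the 6 libraries, members with 7 or 8 rule genes had higher summed levels of every platelet gene list than members with 4 to 6: adhesion receptors, activation receptors, alpha granule, dense granule, cytoskeleton, signalling and transcription factors. Signalling genes had a median of 4319 CPM over libraries in the former and 557 CPM in the latter, and transcription factors 1863 and 957 CPM. *Itga2b* had 265 to 547 CPM in the former and 10.6 to 95.2 in the latter, without overlap. *Gata1* had 61.8 to 205 and 0 to 38.9 CPM, and *Tubb1* 36.8 to 112 and 0 to 5.45 CPM. Lists of cyclins, mitotic kinases and cytokinesis genes did not follow this order, with the former higher in 3 of 6 libraries (median 3335 and 3446 CPM). DNA replication genes were lower in the former in 6 of 6 libraries, with medians of 2012 and 2069 CPM.

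**Figure D2:**
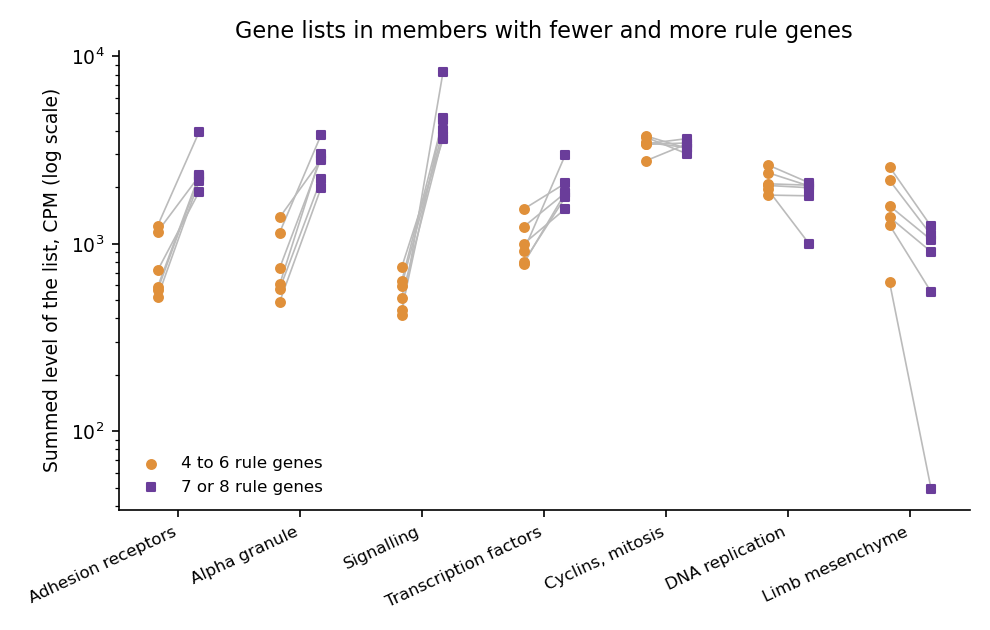
Summed CPM of 7 gene lists (log scale) in members with 4 to 6 (circles) and 7 or 8 rule genes (squares), with a grey line joining both classes of 1 library (6 libraries). Platelet lists lie higher in the squares of every library, whereas mesenchyme genes lie lower.

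To describe which genes went with the rule genes, members were compared with macrophage, erythroid and endothelial cells of the same libraries by edgeR's quasi-likelihood test on UMIs summed per library and cell type, with library as a block and Benjamini-Hochberg adjustment over 10953 genes. The rule, complement and gate genes were left out of the test. Because the cells were chosen by 8 genes of the same program, genes that accompany them in a cell had to differ, and the tests measure only whether a difference exceeded the spread between libraries. Against macrophage cells, 23.8% of all genes tested were higher in members and 22.9% lower, at an adjusted p below 0.05. Against erythroid cells the shares were 28.3% and 19.7%, and against endothelial cells 15.7% and 17.8%. List counts over all members, given below, are to be read against these shares. The median log2 fold change of all genes was 0.01, 0.10 and -0.01 in these comparisons. Of the 179 members, 171 lay in the 6 libraries fitted.

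Fold changes were scaled by TMM, a factor per library and cell type that sets most genes level, whereas the CPM levels are relative to all UMIs. Globin genes summed to a median of 308876 CPM in erythroid cells and 2154 CPM in members, and the scales differed most against erythroid cells. Without scaling beyond the total, an alternative added after these levels had been seen, the median of all genes moved from 0.10 to 0.82 against erythroid cells, with 81.3% of genes higher and 3.57% lower. Of the genes called, 95.8% were then higher, in place of 59.0%. Against macrophage cells the median was 0.13, with 27.8% higher and 16.4% lower (63.0% of calls higher in place of 51.0%), and against endothelial cells 0.03, with 15.3% and 13.7%. Calls below are with TMM scaling. Without it, *Itga6* (-0.47, adjusted p = 0.110), *Runx1* (-0.59, adjusted p = 0.0765) and *Was* (-0.53, adjusted p = 0.0628) lost their calls against macrophage cells. Against erythroid cells 18 transcription factors were then higher and 1 lower, 13 and 0 of the progenitor genes, 13 and 0 of the secreted factors and 8 and 0 of the mesenchyme genes, lists that are described below.

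A further 2 alternatives, also chosen after the data were seen, kept only members with under 500 CPM of mesenchyme genes (called low-mesenchyme members from here on) or only those with at least 7 rule genes. Both fits needed at least 7 cells per library and type in place of 10 and used the same 6 libraries, with 73 low-mesenchyme members of 78, and 95 of 100 members with at least 7 rule genes. Of the 73, 15 passed the endothelial gate. For low-mesenchyme members, 17.9% of all genes tested were higher and 17.4% lower against macrophage, 28.0% and 22.4% against erythroid, and 18.7% and 20.9% against endothelial cells. With at least 7 rule genes the shares were 25.1% and 15.6%, 26.8% and 14.8%, and 18.7% and 15.3%. List counts in these members are to be read against those shares.

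Adhesion receptors and integrins were higher in members than in macrophage and erythroid cells, and were divided against endothelial cells. Of 17 on the list, 16 were tested: 14 were higher and 1 lower against macrophage cells, 15 higher and 0 lower against erythroid cells, and 8 higher and 7 lower against endothelial cells. *Itga2b* (ENSMUSG00000034664, chr11:102453297-102470122) had 152, 214 and 288 CPM as lowest, median and highest of the 6 libraries, at most 3.44 CPM in macrophage, 10.0 in erythroid and 4.50 in endothelial cells, and no overlap with any of them. Its log2 fold changes were 7.27 (standard error 0.34, adjusted p = 2.1e-13), 4.55 (0.19, 1.1e-14) and 6.02 (0.22, 2.9e-15). *Clec1b*, the receptor for podoplanin, had 130 to 352 CPM in members and 74.6 to 111 CPM in endothelial cells, which is higher by 1.30 on the log2 scale (standard error 0.20, adjusted p = 2.1e-05). *Cd9*, a tetraspanin, had 253 to 656 CPM and was higher in each comparison, by 3.17 to 3.45 on the log2 scale. *Pecam1*, an adhesion molecule of platelets and endothelium, had 20.7 to 169 CPM in members and 237 to 386 CPM in endothelial cells (log2 fold change -2.15, standard error 0.29, adjusted p = 5.4e-06). It was -1.02 (adjusted p = 0.0114) in low-mesenchyme members and -2.51 (adjusted p = 5.8e-10) with at least 7 rule genes. Of the 171 members fitted, 29 also passed the endothelial gate. Without the members that passed another gate *Pecam1* had -3.92 (adjusted p = 1.0e-13). Leaving out members by their endothelial genes favours lower values of genes that accompany those, so this value partly follows from the choice. The others lower against endothelial cells were *Itga2*, *Itga6*, *Itgb1*, *Esam*, *F11r* and *Cd151*. In low-mesenchyme members *Itga6* (0.23, adjusted p = 0.357), *Itgb1* (0.05, 0.774), *F11r* (0.08, 0.822) and *Cd151* (-0.24, 0.352) did not pass against endothelial cells, *Jam3* did (-0.90, 0.0206), and 4 of the 16 genes were lower. With at least 7 rule genes 6 were lower, among them *Itgb1* (-0.29, adjusted p = 0.0369), *F11r* (-0.64, 0.0392) and *Cd151* (-0.60, 0.0206), but not *Itga6* (-0.31, 0.243). Without the members that passed another gate, *Itga6* (-1.05, adjusted p = 0.000256), *Itgb1* (-0.65, 3.7e-05), *F11r* (-1.43, 2.6e-05) and *Cd151* (-1.18, 1.7e-05) were lower against endothelial cells, under the same limit of the choice. *Itga6*, the gene lower against macrophage cells, had 0.42 (adjusted p = 0.109) in low-mesenchyme members and -0.08 (adjusted p = 0.801) with at least 7 rule genes. *Gp6*, the collagen receptor, had 31.5 to 69.8 CPM in members and 0 UMIs in macrophage and endothelial cells. With 3 UMIs over all cells of a type as the limit of a count of 0, its level was at least 103-fold and 645-fold higher in members. *Gp1ba* and *Gp1bb*, the chains that pair with *Gp9*, had 20.9 to 61.3 and 42.2 to 129 CPM, and also 0 UMIs in macrophage cells.

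Receptors for platelet agonists such as thrombin, ADP and thromboxane, listed with their signalling chains and with receptors that restrain platelets, such as that for prostacyclin, included 8 that were higher and 3 lower than in macrophage cells, among 11 tested of 14. Against erythroid cells all 11 were higher, and against endothelial cells 9 were higher and 1 lower. The thrombin receptor *F2r* had 108 to 267 CPM, overlapping with 76.6 to 187 CPM in endothelial cells (log2 fold change 0.60, standard error 0.24, adjusted p = 0.0597). Against endothelial cells it passed in low-mesenchyme members (1.45, adjusted p = 7.0e-05) and in those with at least 7 rule genes (1.14, adjusted p = 0.00118). *F2rl2*, a thrombin co-receptor of mouse platelets, had 34.1 to 243 CPM and at most 0.819 CPM in each comparison cell type. *P2rx1*, an ATP-gated channel, had 33.1 to 118 CPM in members and 2.59 to 13.8 in macrophage cells. *Fcer1g*, the signalling chain that pairs with *Gp6*, had 93.6 to 373 CPM in members and 452 to 1071 CPM in macrophage cells, where it was higher by 1.91 on the log2 scale (standard error 0.16, adjusted p = 3.8e-09). *P2ry12*, the ADP receptor of adult platelets, had 1.11 to 4.07 CPM in members and UMIs in 6.15% of them, against 8.42 to 20.3 CPM in macrophage cells (log2 fold change -2.48, standard error 0.36, adjusted p = 7.7e-06). Against macrophage cells both stayed lower in low-mesenchyme members, *Fcer1g* by a log2 fold change of -0.97 and *P2ry12* of -1.64, and with at least 7 rule genes, by -1.10 and -1.80. The prostacyclin receptor *Ptgir* had at most 2.55 CPM and was not tested. 

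Alpha granule cargo and biogenesis genes numbered 17 tested of 18, with 13 higher and 1 lower against macrophage, 15 and 0 against erythroid, and 11 and 2 against endothelial cells. *Thbs1*, thrombospondin 1, had 509, 554 and 645 CPM and at most 10.9 CPM in any comparison cell type. Its log2 fold changes were 7.40, 8.41 and 8.62 (standard errors 0.28, 0.23 and 0.25). *Vwf*, von Willebrand factor, had 61.8 to 115 CPM in members, 0 UMIs in macrophage cells and 4.604 to 10.2 CPM in endothelial cells (log2 fold change 3.403, standard error 0.21, adjusted p = 1.5e-09). *Clu*, clusterin, had 109 to 181 CPM and was higher by 4.56 to 8.22. *Tgfb1* had 151 to 494 CPM and was higher by 0.99 against macrophage cells, where ranges overlapped, and by 1.41 against endothelial cells. *F13a1*, the coagulation factor XIII subunit also made by macrophages, had 12.7 to 44.8 CPM in members and 113 to 261 CPM in macrophage cells (log2 fold change -2.63, standard error 0.17, adjusted p = 4.3e-11). That log2 fold change was -1.86 in low-mesenchyme members and -1.83 with at least 7 rule genes, and it passed in both. *Sparc*, a matrix protein, had 34.0 to 482 CPM in members and 748 to 1101 CPM in endothelial cells, where its log2 fold change was -2.40. Without the members that passed another gate, a choice that favours such a fall, it had -5.37. It had 310 CPM in pooled members with 4 to 6 rule genes and 129.7 CPM in those with 7 or 8, the opposite order to *Thbs1* with 105 and 856 CPM. *Selp*, the P-selectin of activated platelets, had 0.509 to 2.55 CPM, below the minimum for a test, and 0 UMIs in the 3 comparison cell types.

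Of the dense granule and secretion genes, 16 were tested of 18. Against macrophage cells 8 were higher and 5 lower, with a median log2 fold change of 0.52. Against erythroid cells 12 were higher and 1 lower, and against endothelial cells 12 and 0. *Slc35d3*, a dense granule biogenesis gene, had 31.5 to 123 CPM and at most 1.02 CPM in each comparison cell type. *Stx11*, a syntaxin of granule secretion, had 24.8 to 57.0 CPM and at most 3.88 CPM. *Vamp8*, a secretory SNARE shared by many cells, had 70.7 to 182 CPM in members and 146 to 277 in macrophage cells (log2 fold change -0.85, standard error 0.15, adjusted p = 7.3e-05). This call ended in low-mesenchyme members (-0.01, adjusted p = 0.96) and with at least 7 rule genes (-0.36, adjusted p = 0.095).

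Of 21 cytoskeleton genes, 18 were higher and 1 lower against macrophage cells, 21 higher against erythroid and 16 higher against endothelial cells. *Tubb1*, the tubulin of platelet microtubules, had 31.0 to 57.9 CPM and 0 UMIs in macrophage and endothelial cells, a level at least 88.0-fold and 551-fold higher in members. *Tln1* and *Fermt3*, which activate integrins, had 328 to 853 and 243 to 574 CPM and were higher by 0.68 and 1.202 against macrophage and by 1.31 and 6.64 against endothelial cells. *Zyx*, a focal adhesion protein, was higher by 1.65 to 3.196. *Was*, the gene that was lower, had 29.5 to 124 CPM in members and 74.9 to 118 CPM in macrophage cells (log2 fold change -0.64, standard error 0.22, adjusted p = 0.0201), but 0.51 (adjusted p = 0.0549) in low-mesenchyme members and 0.20 (adjusted p = 0.507) with at least 7 rule genes.

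Signalling genes of platelets, 19 tested of 20, were higher in 12 cases and lower in 2 against macrophage cells, and 18 were higher against erythroid and 18 against endothelial cells. *Rap1b*, the small GTPase that switches integrins, had 637, 1199.6 and 1529.7 CPM in members and 288 to 452 CPM in macrophage cells (log2 fold change 1.59, standard error 0.15, adjusted p = 2.1e-08). Its activator *Rasgrp2* had 224 to 740 CPM, against 7.31 to 34.6 in macrophage and 54.0 to 87.0 in endothelial cells. *Plek*, a substrate of protein kinase C, had 296 to 666 CPM and was higher by 1.47 against macrophage and 9.88 against endothelial cells. *Alox12*, the platelet lipoxygenase, had 95.6 to 168 CPM and *Gucy1a1*, a subunit of the nitric oxide receptor, 41.7 to 202 CPM, each with at most 2.66 CPM elsewhere among the 3 cell types. The kinase *Lyn* had 52.0 to 99.5 CPM in members, 112 to 234 in macrophage cells (log2 fold change -1.53, standard error 0.17, adjusted p = 2.0e-07) and 41.2 to 81.3 in endothelial cells, which overlapped with members. In low-mesenchyme members *Lyn* had -0.43 (adjusted p = 0.0522) against macrophage and 1.34 (adjusted p = 1.3e-06) against endothelial cells. In members with at least 7 rule genes it stayed lower against macrophage cells (-0.93, adjusted p = 0.000176) and was higher against endothelial cells (0.77, adjusted p = 0.00107).

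**Figure D3:**
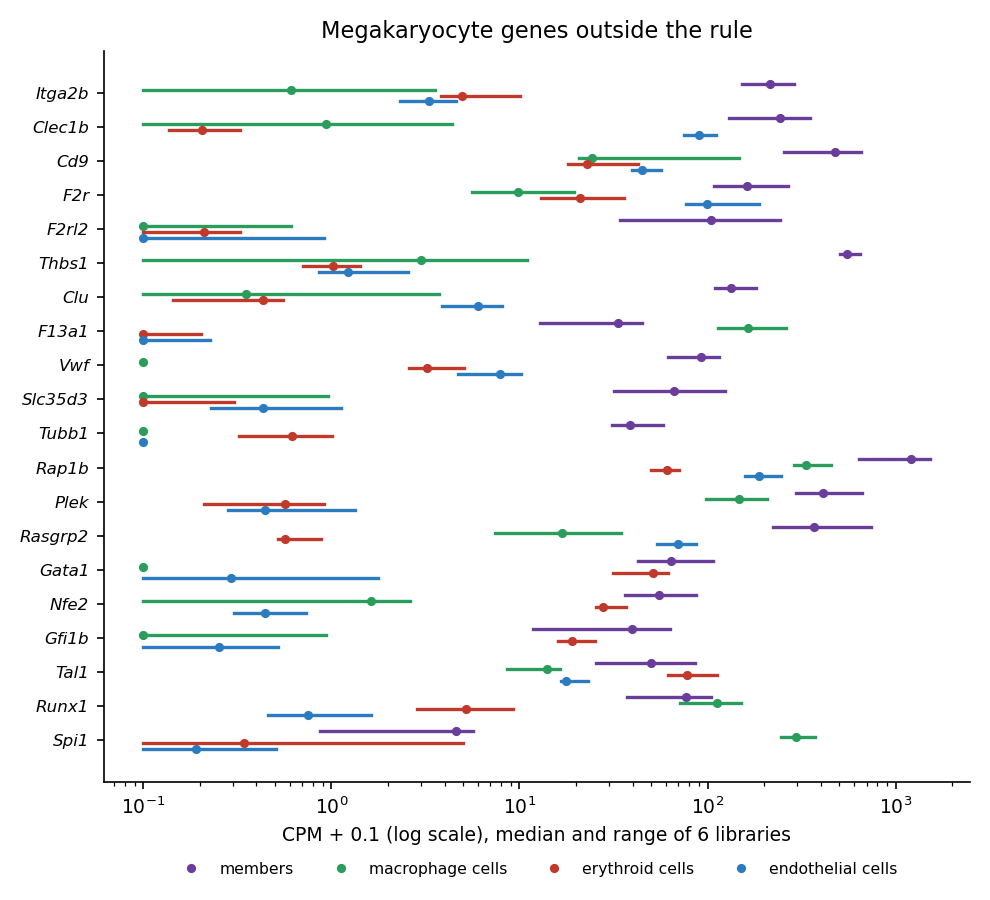
CPM plus 0.1 (log scale) of 20 genes outside the rule in summed members, macrophage, erythroid and endothelial cells, with the median (point) and range (line) of 6 libraries. *Gata1*, *Nfe2*, *Gfi1b* and *Tal1* overlap between members and erythroid cells, and *F13a1* and *Spi1* are higher in macrophage cells.

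*Gata1*, *Nfe2* and *Gfi1b*, factors of both the megakaryocyte and the erythroid lineage, had overlapping levels in members and erythroid cells. Of 22 transcription factors tested of 23, 13 were higher and 4 lower against macrophage, 13 and 3 against erythroid, and 14 and 3 against endothelial cells. *Gata1* (chrX:7959260-7978071) had 42.7 to 106 CPM in members, 31.3 to 61.2 CPM in erythroid cells and 0 UMIs in macrophage cells. Its log2 fold change against erythroid cells was -0.32 (standard error 0.19, adjusted p = 0.175). *Nfe2* had 36.4 to 86.8 CPM in members and 25.6 to 36.7 in erythroid cells (0.17, standard error 0.15, adjusted p = 0.384). *Gfi1b* had 11.7 to 63.0 and 16.0 to 25.1 CPM (-0.01, standard error 0.19, adjusted p = 0.984). None of these 3 genes passed against erythroid cells over all members. Without scaling beyond the total, which follows the CPM levels, they had log2 fold changes of 0.42 (*Gata1*, adjusted p = 0.0573), 0.91 (*Nfe2*, adjusted p = 3.9e-05) and 0.73 (*Gfi1b*, adjusted p = 0.00753). In low-mesenchyme members all 3 were higher than in erythroid cells, *Nfe2* by 1.17 (adjusted p = 2.8e-07), *Gata1* by 0.86 (adjusted p = 0.00138) and *Gfi1b* by 1.01 (adjusted p = 0.000122). With at least 7 rule genes *Nfe2* (0.84, adjusted p = 0.000712) and *Gfi1b* (0.75, adjusted p = 0.00668) passed and *Gata1* (0.41, adjusted p = 0.163) did not. *Tal1* had 25.4 to 85.9 CPM in members and 61.7 to 112 in erythroid cells and was lower in members (log2 fold change -1.48, standard error 0.18, adjusted p = 4.6e-07). The log2 fold change of *Tal1* was -0.47 (adjusted p = 0.0033) in low-mesenchyme members and -0.80 (adjusted p = 0.000725) with at least 7 rule genes, and -0.73 (adjusted p = 0.000644) over all members without scaling beyond the total. *Zfpm1*, the cofactor of *Gata1*, was lower by 0.66 than in erythroid cells and higher than in the other types, by 4.38 and 2.51. In low-mesenchyme members it was higher than in erythroid cells (0.45, adjusted p = 0.0382), and with at least 7 rule genes it passed in neither direction (-0.02, adjusted p = 0.953), nor did *Zfpm1* over all members without scaling beyond the total (0.08, adjusted p = 0.665). *Fli1*, an activator of platelet genes, had 139 to 190 CPM in members, 9.25 to 25.05 in erythroid cells and 101 to 178 CPM in endothelial cells (0.31, standard error 0.17, adjusted p = 0.182). Against endothelial cells it passed in low-mesenchyme members (1.09, adjusted p = 7.3e-06) and with at least 7 rule genes (0.75, adjusted p = 0.00227). *Runx1* had 37.1 to 104 CPM in members and 71.2 to 151 in macrophage cells (log2 fold change -0.73, standard error 0.25, adjusted p = 0.0207), a call lost in low-mesenchyme members (0.45, adjusted p = 0.202) and with at least 7 rule genes (0.06, adjusted p = 0.88). *Spi1*, the master factor of myeloid cells, had 0.775 to 5.57 CPM in members and 245 to 372 CPM in macrophage cells.

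Of 25 cyclins, mitotic kinases and cytokinesis regulators, 2 were higher and 8 lower against macrophage, 2 and 11 against erythroid, and 4 and 7 against endothelial cells, where 15.7% of all genes were higher. Against erythroid cells the direction turned with the scaling, which moved all genes. Without scaling beyond the total, 19 were higher and 1 lower, where 81.3% of all genes were higher and 3.57% lower. The list's median log2 fold change was then 0.51, below the 0.82 of all genes. The list summed to a median of 3382 CPM in members and 2686 CPM in erythroid cells. In low-mesenchyme members the counts were 1 and 5, 4 and 9, and 6 and 6, and with at least 7 rule genes 2 and 5, 1 and 10, and 5 and 6. *Mki67*, a marker of cycling cells, had 247 to 282 CPM in members, 288 to 442 in macrophage, 377 to 718 in erythroid and 153 to 255 in endothelial cells. It was lower against macrophage cells by 0.59, with -0.21 (adjusted p = 0.372) in low-mesenchyme members and -0.41 (adjusted p = 0.0167) with at least 7 rule genes. *Ccnd3*, a cyclin D used in endomitosis, had 232 to 374 CPM and was higher by 1.17 against macrophage and 0.50 against endothelial cells, and lower by 0.93 against erythroid cells, a log2 fold change of -0.29 (adjusted p = 0.0349) in low-mesenchyme members and of -0.19 (adjusted p = 0.0826) over all members without scaling beyond the total. Among 18 DNA replication genes, none was higher in any of the 3 comparisons with TMM scaling, while 9 were lower against macrophage, 14 against erythroid and 0 against endothelial cells. Without scaling beyond the total, 10 of them were instead higher and 0 lower against erythroid cells, where 81.3% of all genes were higher. Their median log2 fold change was 0.27, below the 0.82 of all genes. The list had medians of 2036 CPM in members and 1654 CPM in erythroid cells. Against macrophage cells 6 were lower in that setting. The counts lower were 12, 13 and 3 in low-mesenchyme members and 4, 13 and 0 with at least 7 rule genes, with none higher. *Pcna* had 174 to 257 CPM in members and 194 to 229 in endothelial cells (log2 fold change -0.03, standard error 0.09, adjusted p = 0.834). *Top2a*, a topoisomerase of dividing cells, had 405 to 585 CPM and passed the test in none of the comparisons. Without scaling beyond the total it was higher than in erythroid cells by 0.51 (adjusted p = 0.000145), below the median of 0.82 over all genes.

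Stem and progenitor genes were higher in 7, 10 and 3 and lower in 1, 0 and 3 of 13 tested against macrophage, erythroid and endothelial cells. Of all genes, 23.8%, 28.3% and 15.7% were higher and 22.9%, 19.7% and 17.8% lower. The counts against endothelial cells thus lay near the shares of all genes. In low-mesenchyme members 6, 7 and 3 were higher and 3, 3 and 6 lower. There, 17.9%, 28.0% and 18.7% of all genes were higher and 17.4%, 22.4% and 20.9% lower. The same shares apply to the lists that follow. In members with at least 7 rule genes 6, 6 and 2 were higher and 0, 0 and 4 lower, of 12 tested. Of those higher against macrophage cells, *Hmga2* and *Mecom* were also measured in the limb cells at large. *Hmga2* had 240 to 927 CPM in members and 864 to 1190.2 in all other barcodes, and *Mecom* 82.5 to 282 and 269 to 432. In members with under 500 CPM of mesenchyme genes, the log2 fold changes of *Hmga2* against macrophage and endothelial cells went from 1.15 and 0.13 to -0.51 and -1.51. Secreted factors and matrix, 15 tested of 22, were higher in 10, 6 and 4 cases and lower in 3, 0 and 6. In low-mesenchyme members 6, 6 and 3 of 14 tested were higher and 3, 3 and 7 lower, and with at least 7 rule genes 8, 5 and 4 were higher and 2, 0 and 5 lower. Mesenchyme genes themselves were higher in 9 of 10 cases against macrophage cells and in 7 against endothelial cells, and in 0 against erythroid cells. With at least 7 rule genes 6 were higher against macrophage, 1 against endothelial and 0 against erythroid cells. With only members under 500 CPM of them, which the choice fixes, 9 were lower against macrophage, 9 against erythroid and 10 against endothelial cells.

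The platelet lists were counted again in the 73 low-mesenchyme members fitted. Against macrophage cells, where 17.9% of all genes were higher and 17.4% lower, 14 of 16 adhesion genes were then higher and 0 lower, 8 of 11 activation receptors higher and 3 lower, and 13 of 17 alpha granule genes higher and 1 lower. Of 15 dense granule genes 7 were higher and 3 lower, of 20 cytoskeleton genes 18 and 0, and of 19 signalling genes 14 and 0. Transcription factors had 17 of 22 higher and 1 lower, and against erythroid cells 20 and 1, in place of 13 and 3. Against endothelial cells, 18 transcription factors were higher and 1 lower, and the counts lower were 0 for activation receptors and 1 for alpha granule genes. Against macrophage cells the log2 fold changes of *Rap1b*, *Tgfb1* and *Tln1* were 2.66, 2.08 and 1.66 in these members. Thinned to 3000 UMIs, 322 of 2728 genes tested were higher than in macrophage cells, over the 5 libraries with enough cells, and 2604 of 10953 in the 6 libraries without thinning.

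In all, 399 genes were higher in members in each of the 3 comparisons, and 338 of them were on no list. The 10 with the largest smallest log2 fold change were *Cd226*, *Ly6g6f*, *Il12a*, *Gcsam*, *Muc13*, *Tmem40*, *1110028F11Rik*, *Gnaz*, *Cxcl5* and *Cc2d2b*. *Cd226*, an adhesion receptor also known from lymphocytes and platelets, had 31.8 to 79.1 CPM and UMIs in 45.3% of members, with 0 UMIs in macrophage and endothelial cells. *Il12a*, the p35 chain of interleukins, had 4.07 to 34.9 CPM in members and 0 UMIs in the 3 comparison cell types, a level at least 39.1-fold, 701-fold and 245-fold higher in members. *Gcsam* had 5.43 to 32.3 CPM and likewise 0 UMIs there. *Gnaz*, a G protein alpha subunit of platelets, had 38.7 to 163 CPM in members, at most 1.67 CPM in the 3 cell types and 1.86 to 2.46 CPM in all other barcodes. *Tmem40* had 33.6 to 155 CPM and at most 1.22 CPM. *Cxcl5*, a chemokine gene beside *Ppbp*, had 17.3 to 118 CPM and at most 1.00 CPM.

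Depth was compared between members and the comparison cells of the same library. The median over members was higher than that of macrophage cells in 6 of 6 libraries, by 0.49 ± 0.34 on the log2 scale (SD, n = 6, two-sided exact sign-flip permutation test, p = 0.03125, the smallest it can give). With doublets removed this difference was 0.34 (exact permutation p = 0.0625), with at least 7 rule genes 0.53 (exact permutation p = 0.09375) and in low-mesenchyme members 0.39 (exact permutation p = 0.125). Against endothelial cells the difference was 1.00 ± 0.73 in 6 of 6 libraries (exact permutation p = 0.03125), and against erythroid cells 0.80 ± 0.88 in 5 of 6 (exact permutation p = 0.09375). A barcode with more UMIs passes a gate of 4 genes more easily, for members and comparison cells alike. Comparison cells also had upper limits, at most 1 rule gene and under 4 gate genes of either other type. Deep barcodes meet such limits less easily, and members had one only for the complement genes. The part of these gates in the difference was not tested.

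The share of members among passing barcodes was compared between genotypes over libraries. It was 0.465%, 0.103% and 0.163% in Wt replicates 1 to 3, 0%, 0.357% and 0.171% in *E1C8*Δ/Δ and 0.148%, 0.133% and 0.192% in *E1C5*Δ/Δ. Means were 0.244% ± 0.194, 0.176% ± 0.179 and 0.158% ± 0.0305 (SD, n = 3 each). Wt replicate 1, a male library with the highest share, also held 323 barcodes over 10000 UMIs with at least 5 UMIs of *Xist* and none of a Y-linked gene, 2 of them members, and whether all its cells came from 1 embryo was not tested. Wt libraries held both a value below every *E1C5*Δ/Δ library and the highest of all. By *Xist* and Y-linked UMIs all 3 Wt libraries were male, as were *E1C5*Δ/Δ replicate 2 and *E1C8*Δ/Δ replicate 3. The other mutant libraries were female, so that embryo sex and genotype are partly mixed in these shares. The 6 mutant libraries differed from Wt by -0.0765 percentage points (two-sided exact permutation test, p = 0.476, smallest possible p = 0.0119). *E1C8*Δ/Δ differed from Wt by -0.0672 (exact permutation p = 0.7), *E1C5*Δ/Δ from Wt by -0.0858 (exact permutation p = 0.8) and *E1C8*Δ/Δ from *E1C5*Δ/Δ by 0.0186 points (exact permutation p = 0.8), where 3 against 3 libraries can give no p below 0.1. Without Wt replicate 1, the first 3 differences turned to 0.0341, 0.0434 and 0.0248 points. Without *E1C8*Δ/Δ replicate 1 the second was 0.0209, and without *E1C8*Δ/Δ replicate 2 the fourth was -0.0720 points. *E1C8*Δ/Δ replicate 1 had only 1148 passing barcodes. Its 0 members allow a share of up to 0.321%, the upper end of the exact 95% interval, for counting error only.

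**Figure D4:**
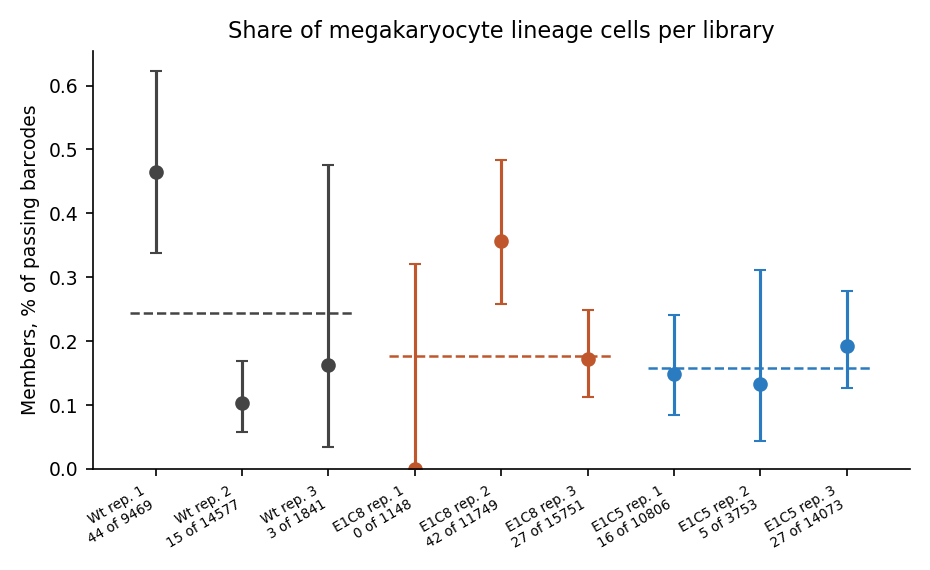
Members as a percentage of passing barcodes in each of the 9 libraries, with exact 95% binomial intervals (counting error only) and the genotype mean as a dashed line. Wt replicate 1 is highest at 0.465% and *E1C8*Δ/Δ replicate 1 lowest at 0%.

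Expression in members was compared between genotypes with the same edgeR test on members summed per library. It covered 9402 genes outside the X and Y chromosomes, with 2 libraries per genotype. By *Xist* and Y-linked UMIs both fitted Wt libraries were male and both fitted *E1C5*Δ/Δ libraries female. Of the *E1C8*Δ/Δ libraries, replicate 2 was female and replicate 3 male. *E1C5*Δ/Δ against Wt thus cannot be told apart from embryo sex, and the other contrasts are partly mixed with it. No gene passed an adjusted p of 0.05 for the mean of both mutants against Wt (0.0% of genes tested), nor for either mutant or between them. An unadjusted p below 0.05 fell on 294 of the 9402 genes in the first contrast, a smaller share than 0.05 itself. It fell on 585 for *E1C8*Δ/Δ against Wt, 133 for *E1C5*Δ/Δ against Wt and 577 between the mutants. DESeq2 called 18 genes for the mean of both mutants, 72 for *E1C8*Δ/Δ against Wt, 1 for *E1C5*Δ/Δ against Wt and 75 between the mutants. Leaving out either *E1C5*Δ/Δ library also gave calls. Such a fit keeps 1 library of that genotype and borrows its spread from the others, so the calls are no replicated difference and are not counted here. The 8 rule genes stayed in this fit although they chose the members, and their values are description only. For the mean of both mutants against Wt they had log2 fold changes of -0.01 to 0.85 with a median of 0.20. *Thbs1* had 645 and 523 CPM in Wt, 509 and 539 in *E1C8*Δ/Δ and 616 and 570 in *E1C5*Δ/Δ libraries, a log2 fold change of -0.00 (standard error 0.16) in the mutants. *Itga2b* had 218 and 184, 210.1 and 245, and 288 and 152 CPM (0.23, standard error 0.29). With 2 libraries per genotype, a change within these errors was not detectable.

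Genes of other cell types varied widely between the libraries' members. The 7 globin genes summed to 1555 and 865 CPM in Wt, 10638 and 32584 in *E1C8*Δ/Δ and 2754 and 860 CPM in *E1C5*Δ/Δ members. The *E1C8*Δ/Δ libraries thus lay above all others. Few cells held most of these UMIs: 3 members held 92.1% and 98.2% of the globin UMIs of the *E1C8*Δ/Δ libraries, where the median members had 582 and 993 CPM. *Hba-x*, an embryonic alpha globin, had 294 and 206 CPM in Wt, 2906 and 9049 in *E1C8*Δ/Δ and 331 and 46.8 in *E1C5*Δ/Δ members (log2 fold change of *E1C8*Δ/Δ 4.66, standard error 0.95, adjusted p = 0.345). It was called for *E1C8*Δ/Δ against Wt by DESeq2, without a filter on low counts and with a replicate block. That block had nearly as many terms as its 6 libraries, and the numbers are not shown to pair them. *Hba-x* was also called with at least 20 members per library, which left 1 library each of Wt and *E1C5*Δ/Δ. The same held without *E1C5*Δ/Δ replicate 1 or replicate 3, which left 1 of *E1C5*Δ/Δ. A genotype with 1 library has no spread of its own in these fits. Globin genes (*Hba-a1*, *Hba-a2*, *Hbb-bh1* and *Hbb-y*), the vessel genes *Kdr* and *Cd34*, and *Sparc* were also called in each of these settings. In the main fit, where none of them passed, the directions differed. These globin genes were higher in *E1C8*Δ/Δ than in Wt members, by 2.19 to 4.89 on the log2 scale. *Kdr* (-2.24), *Cd34* (-3.38) and *Sparc* (-3.14) were lower. The 8 endothelial genes summed to 458 and 1056 CPM in Wt, 135 and 110.3 in *E1C8*Δ/Δ and 1033 and 479 in *E1C5*Δ/Δ members, again with 3 members holding 95.1% of these UMIs in Wt replicate 2 and 94.2% and 92.4% in the *E1C5*Δ/Δ libraries. Mesenchyme genes had 1071 and 889, 1716 and 1245, and 325 and 1371 CPM. Of all 179 members, 31 also passed the endothelial and 11 the erythroid gate, and 0 the macrophage gate, in which 3 of 8 genes are the complement genes that the rule limits. All 8 erythroid and all 8 endothelial gate genes were detected in members. Of the other 5 macrophage genes *Adgre1* and *Cx3cr1* were at 0, and the list of 8 summed to 0 to 1.55 CPM. Of 12 mast cell and neutrophil genes 8 were at 0 (2.33 to 56.4 CPM in sum), and of 7 lymphoid genes 3 (0.509 to 2.49 CPM). The part of these cells in the genotype values was not tested.

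**Figure D5:**
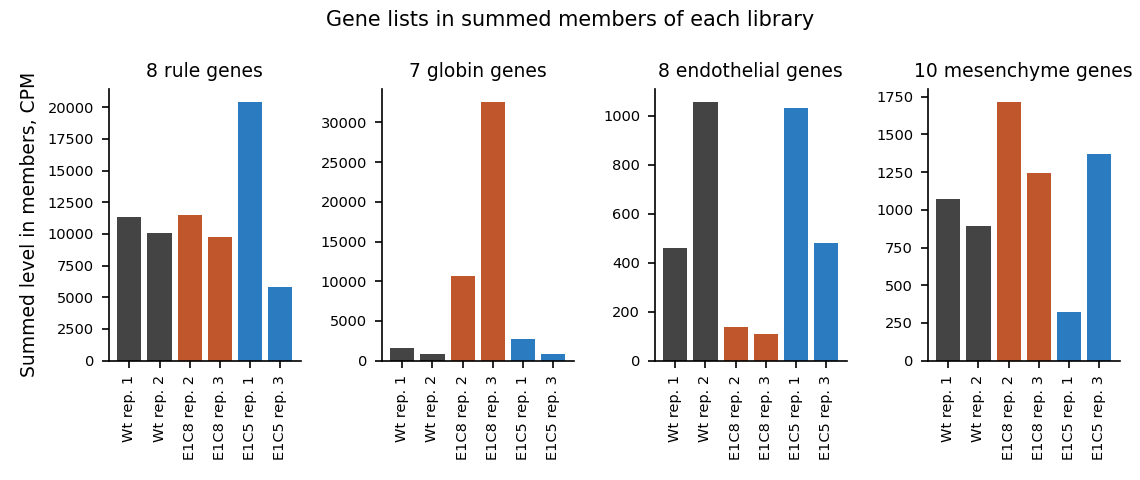
Summed CPM of 4 gene lists in the summed members of the 6 libraries with at least 10 members, in bars from 0. Globin genes are highest in both *E1C8*Δ/Δ libraries (10638 and 32584 CPM), where endothelial genes are lowest (135 and 110.3 CPM).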

How the data were processed

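Single-cell RNA-seq libraries of forelimb bud pairs were made with droplets. Per the labels and the study's methods, the authors aligned reads to mm10 with Cell Ranger 6.0.1 and deposited UMI counts per gene and barcode, without normalization and before their filters on cells, which they ran with Seurat (version 4.3.0.1 per the labels, while the study's methods name a later one). The counts cover 32289 features. The members, the gene lists and the tests were chosen with earlier results of these data known. Gene positions came from GENCODE M21.

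For each library and cell type UMIs were summed, where at least 10 members and 10 comparison cells were present, and tested with edgeR 4.0.16 (TMM, filterByExpr, quasi-likelihood, Benjamini-Hochberg adjustment, R 4.3.3). Cell types were fitted with library as a block, genotypes without a block and without the 1809 features on X or Y. Gates of comparison cells required 4 of 8 genes (macrophage, erythroid or endothelial), under 4 gate genes of either other type and at most 1 rule gene. Shares and depths were tested by exact permutation over libraries, with scipy 1.17.1, and intervals of shares are exact Clopper-Pearson ones. Doublets were scored with Scrublet in scanpy 1.11.5, at 0.8% per 1000 barcodes, and were not removed in the values given. Total UMIs of a library's members ranged from 330167 in Wt replicate 3 to 2691155 in Wt replicate 1, apart from the library without members. Intervals and limits of a count of 0 cover counting error only. The labels do not tie libraries to litters.

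Named genes were, in each list, up to 5 tested genes of highest mean level in members, further list genes needed as exceptions, the rule genes and the markers, and the 10 genes outside the lists with the largest smallest log2 fold change. The classes of members by number of rule genes, and the alternatives with at least 7 rule genes or with under 500 CPM of mesenchyme genes, were added after the members' levels had been seen, with at least 7 in place of 10 cells per library and type, and the fit without TMM scaling after the levels in erythroid cells had been seen. *Selp* and *Ptgir*, of the fixed lists, are given as low values chosen after they were seen. In simulated counts 200 genes were changed by a log2 fold change of 2. Of these, 89.5% were recovered in the genotype test (12 false calls) and 100% in the test against macrophage cells (10 false calls). The changed genes were drawn from well-counted ones, and in the genotype test all mutant libraries were changed together against Wt. These shares do not carry over to single mutants, to low counts or to genes held by few members. Alternatives covered the test (DESeq2 1.42.0), scaling, filters, minimum cells, blocks, embryo sex, thinning to 3000 UMIs, doublet removal, the rule and leaving out each library. A marker gene is not reported here and was left out of the marker count.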

Additional observations from a re-analysis of the deposited data

Results flagged for a closer look

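Barcodes outside the membership filters also carried the rule genes. There were 30 barcodes with 4 or more rule genes and 1000 or fewer genes, with a median of 1537 UMIs, 730 genes and 6.05% mitochondrial UMIs. A further 4 barcodes with 4 or more rule genes had 200000 or more UMIs, and 4 had 10% or more mitochondrial UMIs. None of these were used in the comparisons.

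In libraries of male embryos, some barcodes with more than 10000 UMIs had at least 5 UMIs of *Xist*, the RNA of the inactive X chromosome, and no UMI of a Y-linked gene. There were 323 of them in Wt replicate 1, of which 216 were erythroid cells, 2 were members and 105 were other barcodes. *E1C8*Δ/Δ replicate 3 held 80, of which 26 were erythroid cells, 0 were members and 54 were other barcodes. A further 1 macrophage and 2 erythroid cells in Wt replicate 2 and 1 erythroid cell in *E1C5*Δ/Δ replicate 2 were of this kind. Whether they came from the labelled embryos was not tested.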

How the results depend on the processing

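The number of members, 179, became 80 with barcodes thinned to 3000 UMIs, 100 with at least 7 of 8 rule genes and 78 with under 500 CPM of mesenchyme genes. Differences in share, in percentage points, turned sign as follows. Thinning gave 0.0255 for the mutants, 0.0242 for *E1C8*Δ/Δ, 0.0267 for *E1C5*Δ/Δ and -0.00251 between the mutants. As a share of the 4 gated cell types, *E1C5*Δ/Δ gave 0.0476 and the mutants' difference was -1.13. As a share of passing barcodes, a different measure, the mutants' difference was -0.0639 among those with more than 2500 genes. For members with under 500 CPM of mesenchyme genes it was -0.0514. Leaving out 1 library gave -0.147 to 0.0341 for the mutants, -0.158 to 0.0434 for *E1C8*Δ/Δ, -0.156 to 0.0248 for *E1C5*Δ/Δ and -0.0720 to 0.107 between the mutants, with the sign turned without Wt replicate 1 (0.0341, 0.0434 and 0.0248), without *E1C8*Δ/Δ replicate 1 for that genotype (0.0209) and without *E1C8*Δ/Δ replicate 2 between the mutants (-0.0720). No share difference passed its test under any of these settings.

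The depth difference from macrophage cells lost its call with doublets removed (0.340), with at least 7 rule genes (0.535) and with under 500 CPM of mesenchyme genes (0.386). That from erythroid cells passed with more than 2500 genes (0.867) and with at least 5 (0.882) or 7 rule genes (0.843). With 1 library left out, 5 libraries can give no p below 0.0625, and the values were 0.396 to 0.560 against macrophage and 0.785 to 1.13 against endothelial cells.

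Genotype calls depended on the setting. In the order mutants, *E1C8*Δ/Δ, *E1C5*Δ/Δ and between mutants, DESeq2 called 18, 72, 1 and 75 genes, no filter on low counts 169, 310, 49 and 305, and at least 20 members per library 112, 157, 109 and 243, with 1 library each of Wt and *E1C5*Δ/Δ left, assumed to vary like the others. With 1 library left out, 0 to 2, 0 to 53, 0 to 17 and 0 to 366 genes were called, the most without *E1C5*Δ/Δ replicate 3 or, for *E1C8*Δ/Δ, without *E1C5*Δ/Δ replicate 1 (53 genes). A replicate block in the model, which had nearly as many terms as its 6 libraries, called 41, 172, 20 and 239 genes. The remaining settings gave 0. Embryo sex as a covariate was among them, and it could be estimated from the *E1C8*Δ/Δ libraries alone. Deviations of same-numbered libraries correlated at -0.02, 0.10 and -0.24. With 2 libraries per genotype, each value recurs with the opposite sign for libraries of different numbers. These correlations thus cannot show whether the numbers pair the libraries.

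Members against macrophage cells gave 1048 higher and 1265 lower genes with at least 20 cells per library, and 322 and 234 after thinning. Thinning gave 542 and 507 against erythroid and 380 and 308 against endothelial cells, over 2728 genes tested in 5 libraries, against 10953 genes in 6. Without scaling beyond the total, 8907 were higher and 391 lower against erythroid cells. Other settings kept these counts within 1.5 times.

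Of the genes described, these log2 fold changes turned sign in members with under 500 CPM of mesenchyme genes, with a call before or after: *Prrx1* (-1.97 and -2.27 against macrophage and endothelial cells), *Hmga2* (-0.51, -1.32 and -1.51 against macrophage, erythroid and endothelial cells), *Mecom* (-0.025, -1.34 and -1.46 in the same order), *Runx1* (0.45), *Was* (0.51) and *Itga6* (0.42) against macrophage cells, *Gata1* (0.86), *Gfi1b* (1.01), *Vamp8* (0.59) and *Zfpm1* (0.45) against erythroid cells, and *Itga6* (0.23), *Itgb1* (0.045) and *F11r* (0.080) against endothelial cells. With at least 7 rule genes, *Gfi1b* gave 0.75 against erythroid, and *Runx1* 0.055 and *Was* 0.20 against macrophage cells. Without a call on either side, *Gata1* (0.41) and *Vamp8* (0.17) against erythroid cells, *Hmga2* (-0.01 and -0.21) and *Mecom* (-0.11 and -0.23) against erythroid and endothelial cells and *Pcna* (0.03) against endothelial cells also changed sign there, as did *Hba-x* (-0.37) against macrophage and endothelial cells in low-mesenchyme members. After thinning, *Runx1* gave 0.71, *Was* 0.865 and *Itga6* 0.242 against macrophage cells, *Prrx1* 0.97 against erythroid cells, and *Itga6* 0.161 and *Itgb1* 0.031 against endothelial cells. Without scaling beyond the total, *Gfi1b* (0.73), *Vamp8* (0.49), *Zfpm1* (0.078), *Prrx1* (0.65), *Top2a* (0.51) and *Pcna* (0.032) turned positive against erythroid cells, as did *Gata1* (0.42) without a call, and *Pcna* (0.0053) against endothelial cells. That setting moved the log2 median of all genes against erythroid cells from 0.10 to 0.82. The causes of the other changes were not tested.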

Other observations

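The chemokine genes around *Pf4* on chromosome 5 were looked at after their values had been seen. In members *Cxcl5*, *Ppbp* and *Pf4*, which lie next to each other, had medians of 38.0, 479 and 9132 CPM over 6 libraries. *Cxcl3*, which starts 13668 bases beyond the *Pf4* start, had 7 UMIs over all members and 0 to 1.55 CPM. *Cxcl15*, *Cxcl1* and *Cxcl2*, further along the same stretch, had 0 UMIs in members. *Cxcl2* had a median of 14.3 and a highest value of 134.6 CPM over the libraries' macrophage cells. *Cxcl1* had 2.63 and 6.43 CPM in endothelial cells. The fatty acid receptor gene *Cd36*, which adult platelets carry, had 1 UMI in all members together.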
